A study of Mus musculus with 24 samples.

Results

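The 7 genes described here, Olfr145, Olfr160, Olfr736, Olfr740, Olfr744, Olfr745 and Olfr749, encode olfactory receptors of the mouse and are taken from a list, by name, of receptors that answer acetophenone. No value from these libraries entered that rule, although earlier results of these data were known when the list was drawn up, and whether each receptor answers the odorant was not measured here. All 7 are among the 57010 genes of both count tables, which hold 1107 olfactory receptor genes, and all 7 passed the filter on low counts in both batches, where 928 (AD) and 924 (OC) olfactory receptors were tested.

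Messenger RNA of the olfactory epithelium was counted in 24 libraries from wild-type male C57BL/6J mice aged 8 weeks. The animals spent 4 h without odor and then 90 min with 10 µL of undiluted odorant on filter paper, in 2 batches of 12 libraries. The AD batch has acetophenone (an aromatic ketone), a 1:1 mixture of acetophenone and decanal (AD mixture), decanal (a straight-chain aldehyde) and an AD control with empty paper. The OC batch has octanal (an aldehyde with a shorter chain), the unsaturated alcohol cis-3-hexenol, a 1:1 mixture of both (OC mixture) and an OC control of its own. Each group has 3 biological replicates, and a mixture library came from mice that had the same total volume, so that each odorant was present at a lower amount than alone.

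Each mature olfactory sensory neuron transcribes a single allele of a single olfactory receptor gene, so the level of a receptor's mRNA in the whole tissue reflects how many neurons chose that receptor and how much of its mRNA each holds. In these bulk libraries fewer cells of a type and less RNA per cell cannot be told apart. Odorant binding activates the G protein Golf, adenylyl cyclase 3 and a cyclic nucleotide-gated channel, and in mice exposure to an odorant has been reported to lower the mRNA of receptors that it activates. Receptors are also placed by zone: class I receptors, trace amine-associated receptors and a part of the class II receptors are expressed in the dorsal epithelium.

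The 7 receptors belong to 3 subfamilies. Olfr736, Olfr740, Olfr744, Olfr745 and Olfr749 are members of the subfamily MOR106 and lie in the receptor cluster of chromosome 14. Olfr145 (MOR161) and Olfr160 (MOR171, also called M72) lie on chromosome 9. Their coding sequences show which of them the counting can tell apart. The first 60 coding bases of each receptor, and of Olfr747 as the closest relative of Olfr749, are given from the GENCODE transcripts; capitals mark where Olfr747 differs from Olfr749 and where Olfr744 differs from Olfr740.
Olfr745: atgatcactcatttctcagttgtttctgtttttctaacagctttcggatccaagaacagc
Olfr749: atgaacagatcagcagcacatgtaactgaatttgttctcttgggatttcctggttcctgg
Olfr747: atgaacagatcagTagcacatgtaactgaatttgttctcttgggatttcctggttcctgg
Olfr740: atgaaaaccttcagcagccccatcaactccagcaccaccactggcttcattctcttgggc
Olfr744: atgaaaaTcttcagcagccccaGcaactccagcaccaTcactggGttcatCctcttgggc
Olfr736: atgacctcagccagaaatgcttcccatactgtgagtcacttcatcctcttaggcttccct
Olfr145: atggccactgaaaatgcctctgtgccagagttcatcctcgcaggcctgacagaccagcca
Olfr160: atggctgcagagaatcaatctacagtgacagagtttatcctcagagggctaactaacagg
Over the whole coding sequence Olfr740 and Olfr744 were 82.35% identical, the closest pair within the 7, and the remaining pairs lay between 50.9% and 68.9%. Olfr740 had a closer relative outside the 7, Olfr739, at 93.1%.

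Olfr749 and Olfr747 differed at 15 of 939 coding bases, an identity of 98.4%, and 7 of these 15 differences fall within coding bases 741 to 800, shown here with capitals where Olfr747 differs.
Olfr749: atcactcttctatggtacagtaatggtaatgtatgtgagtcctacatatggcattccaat
Olfr747: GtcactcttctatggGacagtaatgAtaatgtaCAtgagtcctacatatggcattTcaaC
Of the 31-base words in the transcripts of Olfr749, 54.4% also occur in Olfr747, and the deposited count of Olfr749 was not a whole number in any of the 24 libraries. The split of reads between these 2 genes is therefore uncertain, and values of Olfr749 are given below also with the counts of Olfr747 added. Of the words of Olfr160, 14.5% occur in Olfr151 (M71), and Olfr740 and Olfr744 shared 10.6% and 8.99% of theirs with 12 other receptors each, most with Olfr739, while Olfr145, Olfr736 and Olfr745 shared under 1% of theirs with any other receptor. These shares are over whole transcripts, the longest being 3492 bases for Olfr160 and 1330 for Olfr749. A match within the coding part therefore weighs less for Olfr160. Deposited counts that were not whole also occurred for Olfr745, in 4 of 12 AD and 2 of 12 OC libraries. They occurred for Olfr736 in 1 library of each batch and for Olfr160 in 2 OC libraries. The counts of Olfr145, Olfr740 and Olfr744 were whole in all libraries.

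In the AD controls the levels of the 7 receptors lay in 2 ranges. Per kilobase of transcript, Olfr745 averaged 2.59 ± 0.110 CPM (counts scaled to the library size by TMM) in the AD controls (SD, n = 3), Olfr740 2.35 ± 0.318 and Olfr749 2.32 ± 0.434, and the ranges of these 3 overlapped. Olfr736 followed at 0.936 ± 0.0414 CPM per kilobase, Olfr145 at 0.781 ± 0.0884, Olfr160 at 0.636 ± 0.107 and Olfr744 at 0.460 ± 0.145. Olfr736 was above Olfr145 in every AD control, whereas the ranges of Olfr145 and Olfr160, and those of Olfr160 and Olfr744, overlapped. Among 928 tested receptors ranked by this level in the AD controls, Olfr745 was at rank 160, Olfr740 at rank 178 and Olfr749 at rank 180, against rank 420 for Olfr736, 489 for Olfr145, 558 for Olfr160 and 658 for Olfr744. In the OC controls Olfr745 was again the highest at 2.50 ± 0.556 CPM per kilobase and Olfr744 the lowest at 0.354 ± 0.260, but the 2 ranges were not apart there: Olfr749 ran from 0.981 to 3.37 CPM per kilobase and overlapped with Olfr160, at 0.642 to 1.05. With the counts of Olfr744 between 8 and 58 per library, its values carry the largest relative counting error of the 7.

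Acetophenone was compared with the AD control to ask whether the mRNA of receptors listed as answering this odorant differs after exposure to it. Olfr745 had 3.48, 2.38 and 2.96 CPM in the acetophenone libraries, against 4.92, 5.24 and 4.83 CPM in the AD controls. Olfr744 had 0.324, 0.376 and 0.508 CPM with acetophenone, against 1.61, 1.03 and 0.917 CPM in the AD controls. Olfr749 had 2.59, 1.38 and 2.20 CPM with acetophenone, against 2.76, 2.75 and 3.75 CPM in the AD controls. For these 3 receptors of chromosome 14, every acetophenone library was below every control library. On chromosome 9, Olfr145 had 3.81, 2.26 and 4.02 CPM with acetophenone, against 5.36, 4.68 and 5.88 CPM in the AD controls. Olfr160 had 1.70, 1.34 and 1.65 CPM with acetophenone, against 1.89, 2.15 and 2.63 CPM in the AD controls. For these 2 receptors the groups did not overlap either. The remaining 2 receptors overlapped with the controls: Olfr740 had 8.95, 8.78 and 7.92 CPM with acetophenone, against 8.74, 9.02 and 11.1 CPM in the AD controls. Olfr736 had 3.08, 1.97 and 3.56 CPM with acetophenone, against 2.36, 2.40 and 2.21 CPM in the AD controls.

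**Figure D1:**
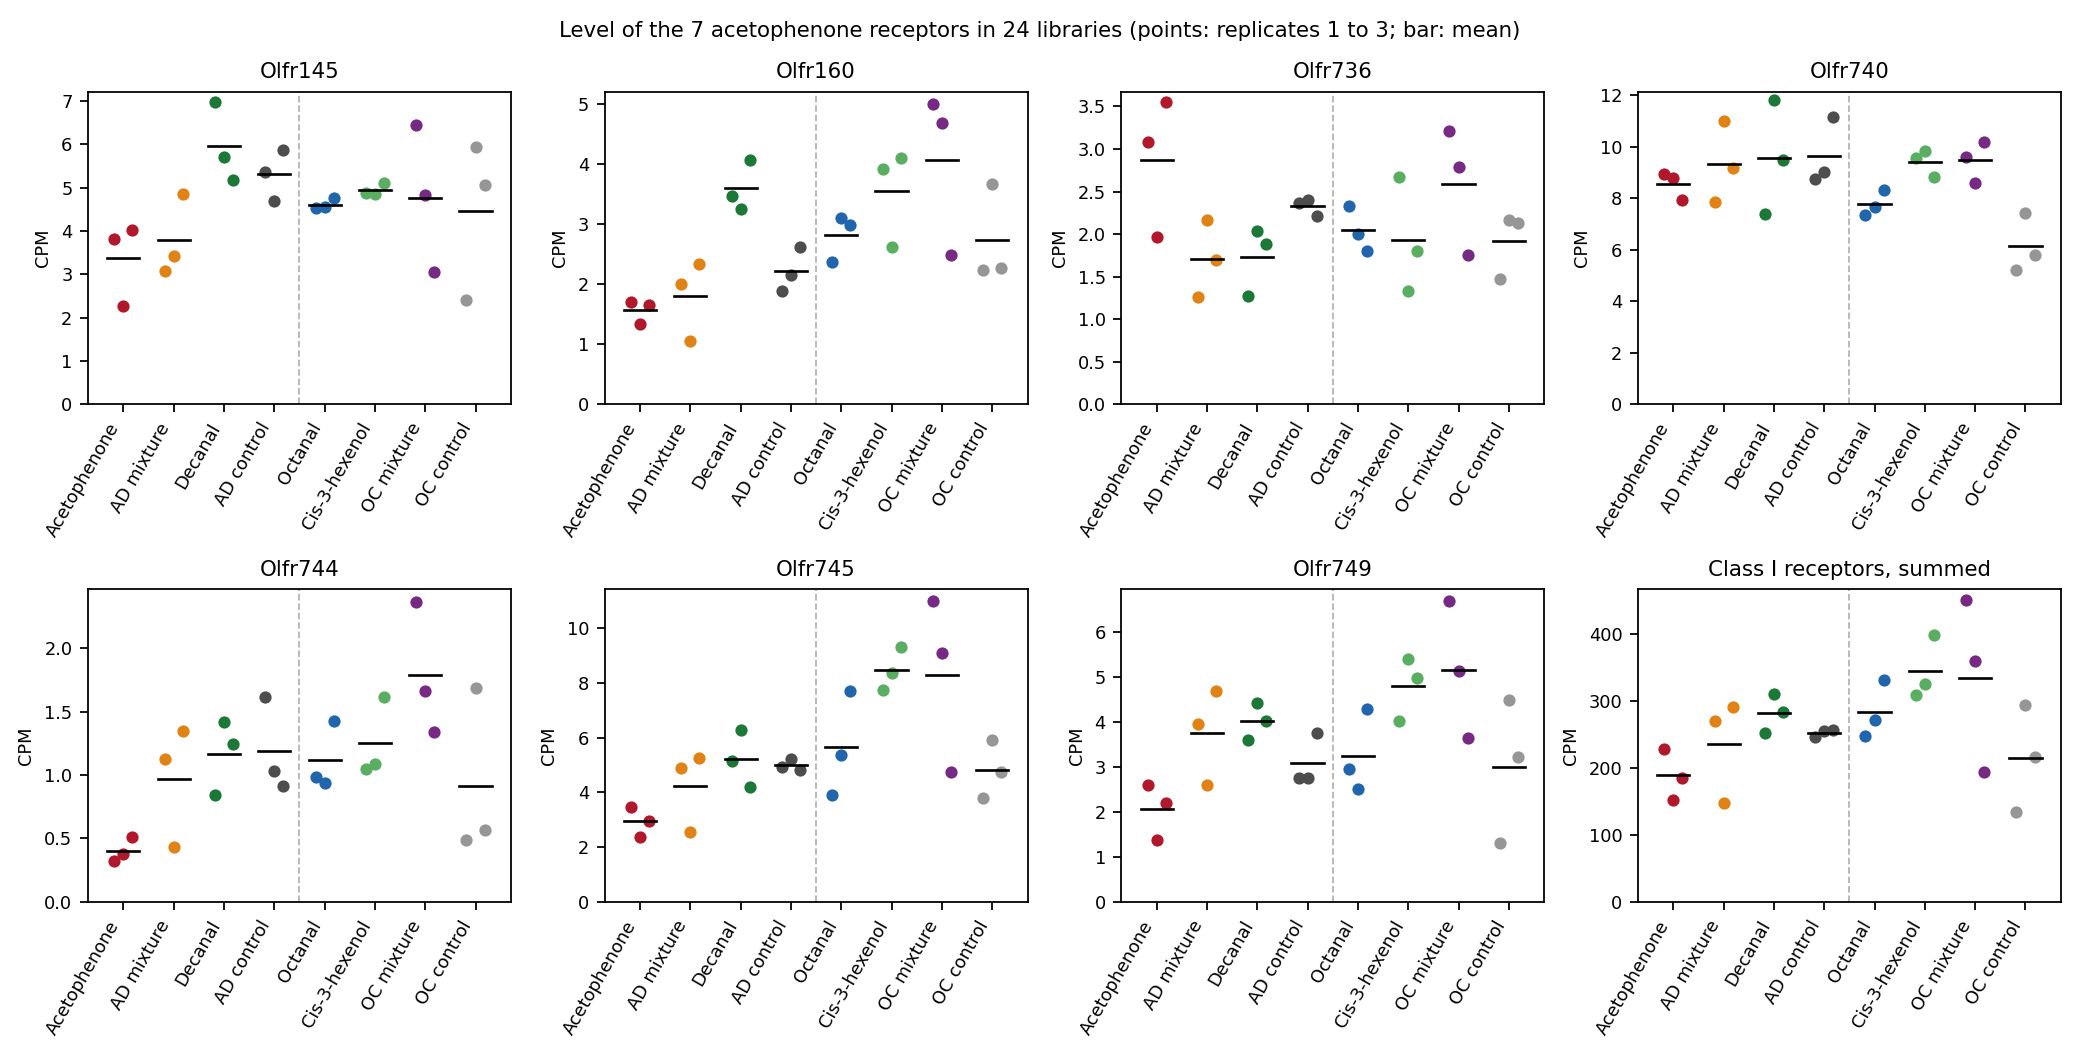
Level of each of the 7 receptors and the summed level of class I receptors (y axis, CPM) in the 24 libraries, by group (x axis); points are replicates, bars are means of 3, and the dashed line parts the AD batch from the OC batch. The acetophenone libraries of Olfr744 sit between 0.324 and 0.508 CPM, below all AD controls, while those of Olfr740 and Olfr736 overlap with the controls.

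None of these differences passed the test. With edgeR's quasi-likelihood test over 19525 genes, 0 of 7 receptors were called between acetophenone and the AD control, where 0.00512% of all genes were called (a call is a p under 0.05 after Benjamini-Hochberg adjustment). The log2 fold change was -1.55 for Olfr744 (SE 0.43, adjusted p = 0.464), -0.76 for Olfr745 (SE 0.24, adjusted p = 0.525), -0.66 for Olfr145 (SE 0.22, adjusted p = 0.572), -0.58 for Olfr749 (SE 0.26, adjusted p = 0.738) and -0.50 for Olfr160 (SE 0.27, adjusted p = 0.768). It was -0.17 for Olfr740 (SE 0.16, adjusted p = 0.864) and 0.30 for Olfr736 (SE 0.26, adjusted p = 0.850). At an unadjusted p under 0.05 there were 4 receptors (Olfr145, Olfr744, Olfr745 and Olfr749), beside 13.8% of all tested receptors, and the Wald test of DESeq2 called 0 of the 7. The lack of overlap in 5 of 7 receptors stands beside 6.35% of all genes that were lower without overlap. Among all tested receptors the share lower without overlap was larger than among all genes, and above the 13.8% at an unadjusted p under 0.05. The median log2 fold change was -0.58 over the 7 receptors, -0.11 over all 928 receptors and 0.006 over all genes. Scaling on receptor genes alone moved the median of all genes to 0.12 and gave -0.47 over the 7 receptors.

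Without the filter on low counts, Olfr744 (adjusted p = 0.0338) and Olfr745 (adjusted p = 0.0367) were called lower with acetophenone, and the number of all genes called went to 302, against 1 with the filter. Adding the counts of Olfr747 to those of Olfr749 brought the acetophenone libraries to 3.97, 2.76 and 3.39 CPM, against 3.43, 3.82 and 4.63 CPM in the AD controls. The summed pair overlapped between the groups, and its difference was -0.23 on the log2 scale (SE 0.18, adjusted p = 0.843). Olfr747 alone had 1.38, 1.38 and 1.19 CPM with acetophenone, against 0.670, 1.07 and 0.875 CPM in the AD controls, and so was higher where Olfr749 was lower.

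**Figure D2:**
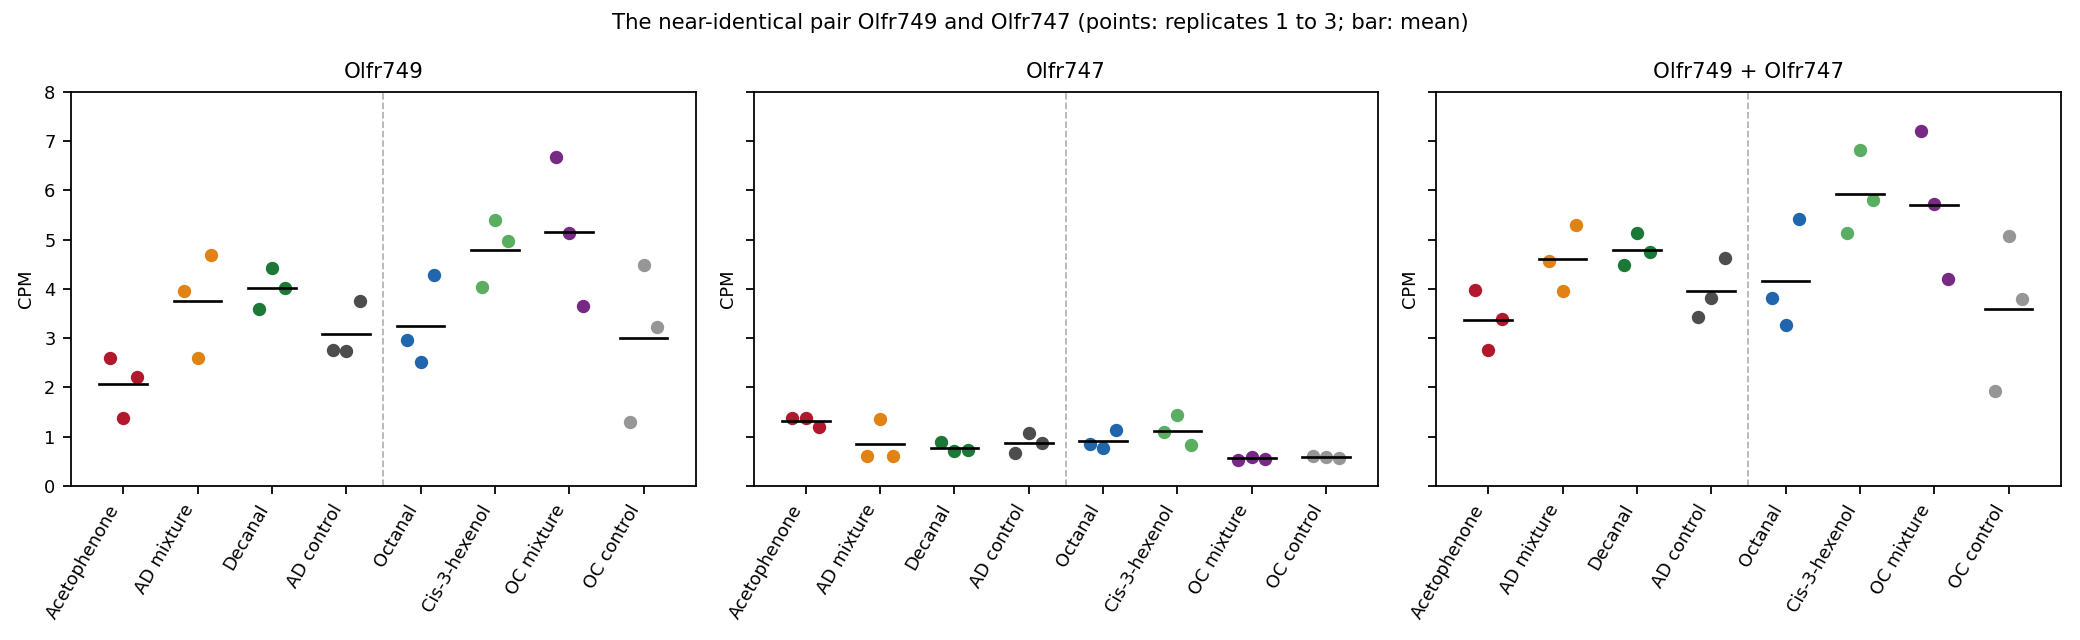
CPM (y axis) of Olfr749, of Olfr747 and of their sum in each library by group (x axis), with points for replicates and bars for means. Olfr749 is lower in each acetophenone library than in any AD control, and the sum, at 2.76 to 3.97 CPM with acetophenone, overlaps with the controls.

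Decanal exposure in the same batch gave a comparison of acetophenone with another odorant. Olfr745 had 5.16, 6.29 and 4.20 CPM in the decanal libraries and Olfr744 had 0.845, 1.42 and 1.24 CPM, so that for both the 3 acetophenone libraries were below the 3 decanal libraries. Olfr749 had 3.59, 4.42 and 4.03 CPM with decanal, Olfr145 had 6.97, 5.71 and 5.18 CPM and Olfr160 had 3.47, 3.25 and 4.07 CPM, again all above the acetophenone libraries. With acetophenone against decanal, 5 of 7 receptors were lower (background 12.6% of all genes called lower; 21.2% of all genes were lower without overlap). Olfr160 differed with a log2 difference of -1.20 (SE 0.26, edgeR adjusted p = 0.00307), Olfr749 with -0.96 (SE 0.26, adjusted p = 0.0116), Olfr145 with -0.82 (SE 0.22, adjusted p = 0.0126), Olfr744 with -1.53 (SE 0.43, adjusted p = 0.0162) and Olfr745 with -0.82 (SE 0.24, adjusted p = 0.0192). Olfr740, with 7.40, 11.8 and 9.46 CPM in the decanal libraries, had a log2 difference of -0.16 (SE 0.16, adjusted p = 0.511). Olfr736 went the other way, with 1.27, 2.04 and 1.88 CPM in the decanal libraries and a log2 difference of 0.73 (SE 0.27, adjusted p = 0.0575).

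The calls against decanal rested partly on single libraries and on the pair. Leaving out acetophenone replicate 2, the lowest of its group for 5 of the 7 receptors, left Olfr160 called lower and Olfr736 called higher (log2 fold change 0.94, adjusted p = 0.0220); leaving out decanal replicate 2 left Olfr145, Olfr160 and Olfr749. A call was also lost without acetophenone replicate 1 (Olfr744), acetophenone replicate 3 (Olfr745) or decanal replicate 1 (Olfr145). With Olfr747 added, Olfr749 had a log2 difference of -0.50 (SE 0.18, adjusted p = 0.0516) and was not called. The decanal libraries also held more RNA of blood and marrow: the summed level of 4 red cell genes was 213 to 573 CPM with acetophenone, against 1970 to 2367 CPM with decanal, and that of 4 marrow and neutrophil genes was 3.26 to 10.7 CPM with acetophenone, against 59.9 to 83.2 CPM with decanal. All 8 of these genes were called lower with acetophenone and none was at 0; their part in the receptors' difference was not tested.

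**Figure D3:**
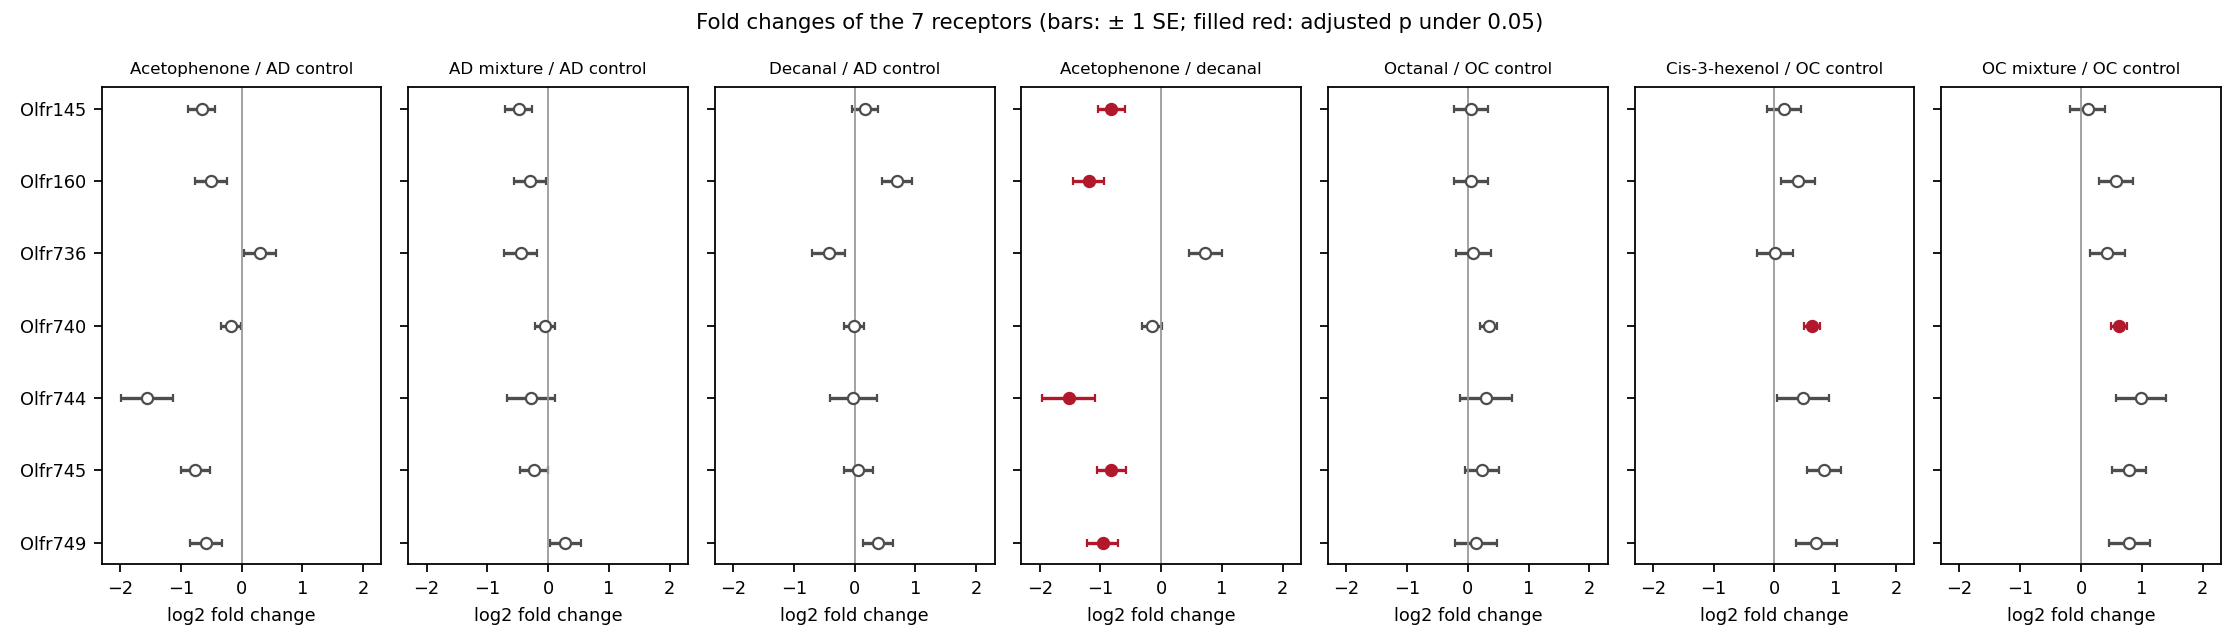
Log2 fold change (x axis) of the 7 receptors (y axis) in 7 comparisons, the group named before the stroke over that named after it; bars are ± 1 SE and filled points have an adjusted p under 0.05. Filled points appear for 5 receptors with acetophenone against decanal and for Olfr740 with cis-3-hexenol and with the OC mixture.

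The AD mixture allowed acetophenone to be read with decanal present. Olfr744 had 1.13, 0.434 and 1.34 CPM in the AD mixture libraries, Olfr745 had 4.91, 2.55 and 5.25 CPM and Olfr749 had 3.95, 2.60 and 4.69 CPM. Replicate 2 of the AD mixture was the lowest of its group for each of these 3. For Olfr744 and Olfr745 replicate 2 was within the range of the acetophenone libraries, while replicates 1 and 3 were within the range of the AD controls or next to it. For Olfr749 replicates 1 and 3 were above every AD control, and replicate 2 lay between the acetophenone and the control libraries. Olfr160 had 2.00, 1.06 and 2.34 CPM in the AD mixture libraries and Olfr145 had 3.08, 3.42 and 4.86 CPM. Olfr740 had 7.86, 11.0 and 9.15 CPM in these libraries, overlapping with the controls. Against the AD control, 0 of 7 receptors were called with the AD mixture, where 22.3% of all genes were called; 1 was at an unadjusted p under 0.05 (Olfr145) and DESeq2 called 0. Without AD mixture replicate 3, Olfr145 was called. The log2 fold changes ran between -0.48 for Olfr145 (SE 0.22, edgeR adjusted p = 0.140) and 0.28 for Olfr749 (SE 0.25, adjusted p = 0.468), and Olfr736, with 1.26, 2.17 and 1.69 CPM, was the only receptor of the 7 lower than the controls without overlap (log2 fold change -0.45, SE 0.27, adjusted p = 0.275). This 1 of 7 stands beside 9.27% of all tested receptors that were lower without overlap.

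With the AD mixture against acetophenone alone, Olfr749 was higher by a log2 difference of 0.87 (SE 0.26, edgeR adjusted p = 0.0223) and Olfr744 by 1.27 (SE 0.44, adjusted p = 0.0462), where 11.6% of all genes were called higher. Olfr736 had a log2 difference of -0.75 (SE 0.27, adjusted p = 0.0541). None of the 7 was called without AD mixture replicate 1 or replicate 3, and 4 were without replicate 2 (Olfr736 lower, Olfr744, Olfr745 and Olfr749 higher); without acetophenone replicate 1 or 3 the call was Olfr749 and without acetophenone replicate 2 it was Olfr736. Added to Olfr747, Olfr749 was not called (log2 fold change 0.45, adjusted p = 0.0871). Blood, marrow and bone genes moved here too: the red cell genes summed to 1636 to 2316 CPM with the AD mixture, against 213 to 573 CPM with acetophenone, and the marrow and neutrophil genes to 93.1 to 126 CPM with the AD mixture, against 3.26 to 10.7 CPM with acetophenone. All 4 red cell, all 4 marrow and neutrophil and all 3 bone genes were called higher with the AD mixture and 3 of 5 mature neuron genes lower, and their part in the receptors' difference was not tested. Against decanal, 0 of 7 receptors were called with the AD mixture, and the share over all genes was 0.0%, with 1090 genes and 2 of the 7 receptors at an unadjusted p under 0.05 and 2 genes called by DESeq2. Olfr160 (log2 fold change -0.99, SE 0.26, adjusted p = 0.887) and Olfr145 (-0.65, SE 0.22, adjusted p = 0.887) were both lower with the AD mixture than with decanal in all 3 libraries. In this comparison 5.71% of all tested receptors were lower without overlap.

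The AD batch crosses the presence of acetophenone with that of decanal, so its 12 libraries also give a mean effect of acetophenone. With acetophenone present against absent, 0 of 7 receptors were called (0.00512% of all genes); 4 had an unadjusted p under 0.05, beside 7.33% of all genes, and DESeq2 called 0. The log2 fold change was -0.91 for Olfr744 (SE 0.29, edgeR adjusted p = 0.528), -0.75 for Olfr160 (SE 0.18, adjusted p = 0.519), -0.65 for Olfr145 (SE 0.16, adjusted p = 0.512) and -0.53 for Olfr745 (SE 0.17, adjusted p = 0.528). It was -0.34 for Olfr749, -0.10 for Olfr740 and 0.14 for Olfr736. Without the low-count filter Olfr145 and Olfr160 were called lower. The acetophenone effect with decanal minus that without decanal was called for 0 of 7 receptors (0.0% of all genes, with 1000 genes and 1 of the 7 receptors at an unadjusted p under 0.05, and 11 genes called by DESeq2); that receptor was Olfr744, at 1.29 on the log2 scale (SE 0.59, adjusted p = 0.940).

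Decanal alone was set against the AD control, where 23.9% of all genes were called. The test called 0 of 7 receptors; 1 had an unadjusted p under 0.05 (Olfr160), and DESeq2 called 0. Olfr160 was higher in all 3 decanal libraries than in any AD control, at a log2 difference of 0.69 (SE 0.25, edgeR adjusted p = 0.0566), and Olfr736 was lower in all 3, at -0.42 (SE 0.27, adjusted p = 0.292). The other 5 receptors lay between -0.03 for Olfr744 and 0.38 for Olfr749. Over all tested receptors, 8.19% were higher and 9.59% lower with decanal without overlap.

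**Figure D4:**
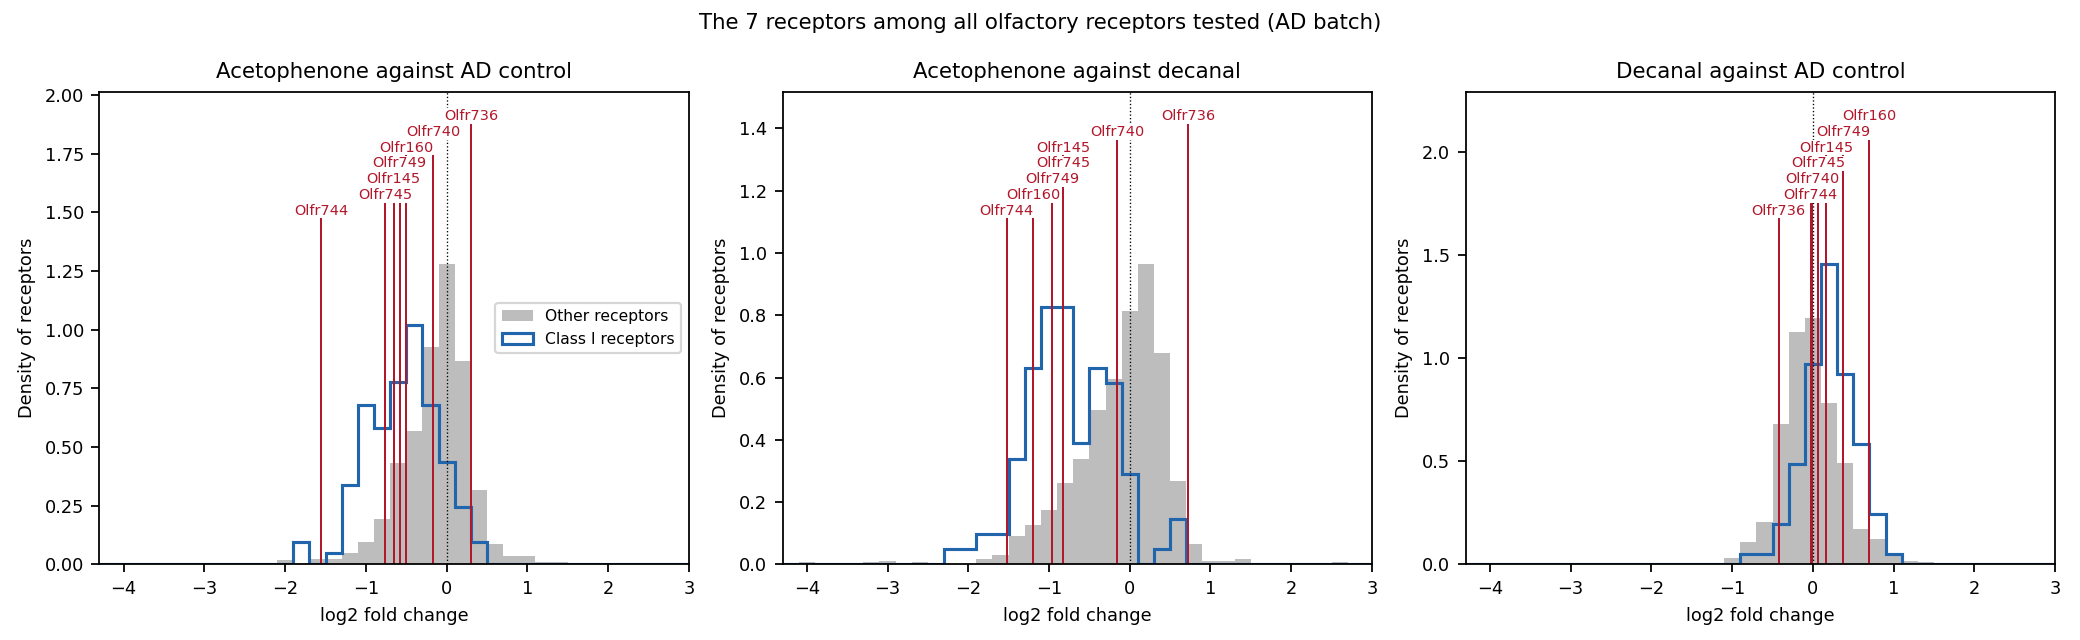
Distribution of log2 fold changes (x axis) of all tested olfactory receptors as density (y axis), class I receptors in outline and the other receptors filled, with a line for each of the 7 receptors, in 3 comparisons of the AD batch. With acetophenone against the AD control and against decanal, the class I outline lies left of 0, at a median of -0.52 and -0.82, and 6 of the 7 lines lie left of 0 as well.

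Class I and trace amine-associated receptors, which mark the dorsal epithelium, also had lower median values with acetophenone, though no single one was called against the AD control. The summed level of class I receptors was 228, 153 and 185 CPM in the acetophenone libraries, against 246, 255 and 256 CPM in the AD controls. The median log2 fold change of 103 class I receptors was -0.52, with 87.4% of them below 0, and that of 8 trace amine-associated receptors was -0.38. The 825 other receptors had a median of -0.08. None of the class I receptors passed the test against the AD control (24 had an unadjusted p under 0.05, and DESeq2 called 0), and 27 of 103 were called lower against decanal, at a median of -0.82. Nqo1, an enzyme of the dorsal epithelium, had 299.8, 220.4 and 224 CPM with acetophenone, against 289.6, 331.5 and 330.4 CPM in the AD controls (log2 fold change -0.36, SE 0.17, edgeR adjusted p = 0.761), and was called lower against decanal (-0.54, SE 0.17, adjusted p = 0.0269). Acsm4, a second dorsal gene, had a log2 fold change of -0.24 against the AD control (SE 0.14, adjusted p = 0.782) and of -0.20 against decanal (SE 0.14, adjusted p = 0.324). Ncam2, which marks the remaining zones, was at 35.2 to 40.5 CPM with acetophenone, against 34.0 to 39.4 CPM in the AD controls.

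Across the 24 libraries, each centred within its batch, the level of 5 of the 7 receptors followed the mean level of class I receptors. Pearson's r was 0.93 for Olfr745, 0.88 for Olfr749, 0.80 for Olfr744, 0.80 for Olfr160 and 0.75 for Olfr145, but 0.45 for Olfr740 and 0.09 for Olfr736. These are descriptions over libraries that share their scaling and, 3 by 3, their group; within the 12 AD libraries r was 0.94 for Olfr745, 0.08 for Olfr740 and -0.36 for Olfr736, and within the 12 OC libraries it was 0.92, 0.64 and 0.50 for the same 3. The libraries with the lowest class I sums were OC control 1 at 134 CPM, AD mixture 2 at 147 CPM and acetophenone 2 at 153 CPM. In the OC controls, which had no odorant and class I sums of 134, 294 and 216 CPM, Olfr749 was at 1.31, 4.49 and 3.22 CPM and Olfr744 at 0.489, 1.69 and 0.569 CPM, so that Olfr744 was nearly as low in OC control 3 as in OC control 1.

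**Figure D5:**
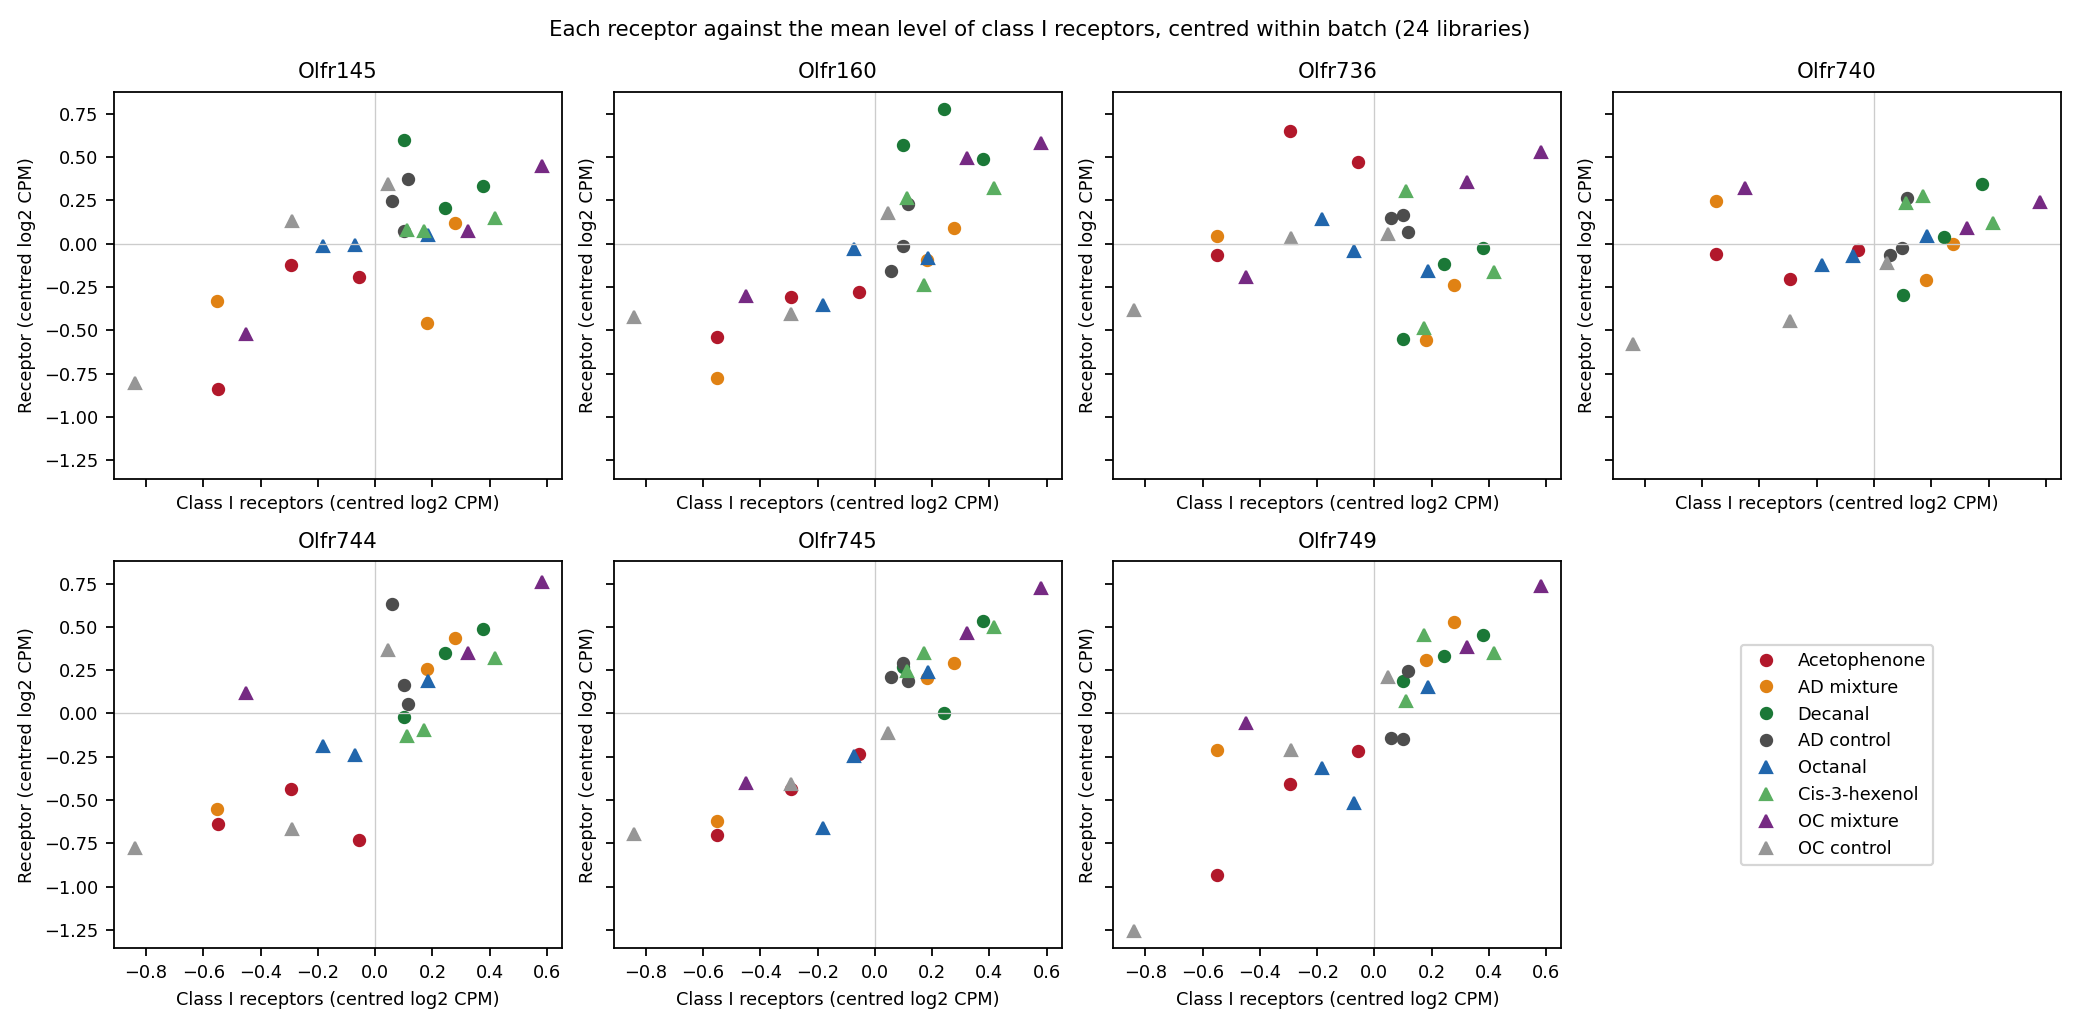
Centred log2 CPM of each of the 7 receptors (y axis) against the mean centred log2 CPM of class I receptors (x axis) in 24 libraries; circles are AD libraries, triangles OC libraries, and colors mark groups. The points of Olfr745 and Olfr749 lie along a rising line (r of 0.93 and 0.88), and those of Olfr736 do not (r of 0.09).

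A fit with the mean level of class I and trace amine-associated receptors of each library as a covariate, chosen after the data were seen, gave the receptors' values at equal dorsal level. Against the AD control, acetophenone then had log2 fold changes of -0.94 for Olfr744 (SE 0.47), -0.48 for Olfr145 (SE 0.26), -0.28 for Olfr745 (SE 0.19), -0.15 for Olfr749 (SE 0.22), -0.08 for Olfr160 (SE 0.27), -0.23 for Olfr740 (SE 0.20) and 0.28 for Olfr736 (SE 0.32), and 0 of 7 receptors were called. Against decanal the number called went to 0 of 7, against 5 without the covariate. Calls over all genes fell as well, to 2463 against 5278. The log2 differences from decanal were then -0.678 for Olfr744 (SE 0.529), -0.635 for Olfr160 (SE 0.297) and -0.586 for Olfr145 (SE 0.287). They were -0.365 for Olfr749 (SE 0.248), -0.237 for Olfr740 (SE 0.224), -0.172 for Olfr745 (SE 0.214) and 0.699 for Olfr736 (SE 0.368). Of the variance of this covariate in the AD batch, 46.4% lay between the groups, so that dorsal level and odorant cannot be fully told apart in 12 libraries.

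The genes whose pattern over the 24 libraries was most like the mean of the 7 receptors were found by Pearson's r, the 7 left out. Among receptors these were Olfr376 (r = 0.92), Olfr481 (0.91), Olfr606 (0.90), Olfr969 (0.90) and Olfr133 (0.90), and among other genes Svopl (0.83), Nqo1 (0.83), Spcs3 (0.82), Fam19a4 (0.81) and Taar7f (0.80). Of the 50 receptors most alike, 24 were of class I, or 48.0%, beside 11.2% of the 909 receptors ranked. Among the 7 themselves r was highest for Olfr745 with Olfr749, at 0.83, and for Olfr744 with Olfr745, at 0.79, and Olfr736 stayed between -0.02 and 0.19 with the others.

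Neighbours and relatives of the 7 receptors were taken from the annotation. In the cluster of chromosome 14, 30 of 31 other receptors were tested, and their median was -0.09 on the log2 scale with acetophenone against the AD control, between -1.59 (Olfr221) and 0.59. In the cluster of chromosome 9 that holds Olfr145 and Olfr160, 75 of 95 other receptors were tested, with a median of -0.34 and a lowest value of -3.50 for Olfr904 (SE 0.85, edgeR adjusted p = 0.412). No neighbour was called in either cluster against the AD control by edgeR or DESeq2, with 5 on chromosome 14 and 14 on chromosome 9 at an unadjusted p under 0.05. Against decanal, 13 neighbours on chromosome 9 were called lower with acetophenone and 0 higher, and on chromosome 14 there were 5 lower and 2 higher. The other MOR106 receptors, 7 tested of 8, had a median of -0.04 with acetophenone against the AD control, between -0.67 and 0.59. Olfr739, the closest relative of Olfr740 and Olfr744, had -0.20 (SE 0.39, adjusted p = 0.949). Of 2 further receptors known for acetophenone, Olfr151 was listed at 0 in all 12 AD libraries, and Olfr983 had 2.55, 2.80 and 2.71 CPM with acetophenone, against 3.51, 3.48 and 3.21 CPM in the AD controls (log2 fold change -0.34, SE 0.24, adjusted p = 0.820). Whether reads of Olfr151 were counted to Olfr160 was not tested.

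Genes that act with the receptors in the same neurons did not pass the test with acetophenone. Of 21 genes of transduction and receptor trafficking, 0 were called against the AD control by edgeR or DESeq2, 1 was at an unadjusted p under 0.05, and the median log2 fold change was 0.03. The smallest p belonged to Gng13 (0.20, SE 0.09, edgeR adjusted p = 0.741), Gnb1 (0.09, SE 0.06), Grk3 (-0.12, SE 0.09) and Arrb2 (0.11, SE 0.08), which encode G protein subunits, a receptor kinase and an arrestin. Of 13 genes that follow the activity of sensory neurons, 0 were called by edgeR, 5 were at an unadjusted p under 0.05, DESeq2 called 1 (Lrrc3b), and the median log2 fold change was 0.29, with Lrrc3b at 0.41 (SE 0.10, adjusted p = 0.412), Fosb at 1.43 (SE 0.39, adjusted p = 0.451) and Nr4a1 at 0.62 (SE 0.17, adjusted p = 0.464). Of 10 genes of receptor choice and neuron stage, 0 were called by edgeR or DESeq2 and 1 was at an unadjusted p under 0.05, at a median of 0.04. Against decanal, where 14.4% of all genes were called higher and 12.6% lower, 10 transduction genes were called higher and 1 lower with acetophenone, among them Pde1c, a phosphodiesterase, higher by 0.67 (SE 0.07, adjusted p = 1.62e-05) and Gng13 lower (-0.31, SE 0.09, adjusted p = 0.0172). The sum of 5 mature neuron genes was 17790 to 18220 CPM with acetophenone, against 17070 to 18300 CPM in the AD controls, and Omp, the defining marker of these neurons, was at 9514 to 9797 CPM with acetophenone, against 9115 to 9805 CPM in the AD controls. Other tissue markers were apart: 4 marrow and neutrophil genes summed to 3.26 to 10.7 CPM with acetophenone, against 11.6 to 21.3 CPM in the AD controls. For 4 olfactory ensheathing cell genes it was 190 to 268 against 277 to 303 CPM, and for 3 gland genes 6739 to 8398 against 6106 to 6501 CPM. By edgeR 0 genes of these 3 lists were called. An unadjusted p under 0.05 was found for 4 of 4 marrow and neutrophil genes, 2 of 4 ensheathing cell genes and 1 of 3 gland genes. DESeq2 called 1 gland gene and 0 of the other 2 lists. The part of these genes in the receptors' difference was not tested.

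Odorants of the OC batch showed how the 7 receptors varied without acetophenone. Olfr740 had 9.57, 9.84 and 8.80 CPM with cis-3-hexenol and 9.61, 8.60 and 10.2 CPM with the OC mixture, against 5.22, 7.43 and 5.78 CPM in the OC controls, with no overlap for either. It was called higher with cis-3-hexenol (log2 fold change 0.62, SE 0.14, edgeR adjusted p = 0.0117, where 5.56% of all genes were called higher) and with the OC mixture (0.63, SE 0.14, adjusted p = 0.00420, where 11.5% of all genes were called higher). Such a lack of overlap was common among receptors. With the OC mixture 35.8% of all tested receptors were higher without overlap, and with cis-3-hexenol somewhat fewer. By edgeR, 87 of 924 receptors were called higher with cis-3-hexenol and 253 with the OC mixture. The log2 fold change of Olfr740 was above that of 69.5% (cis-3-hexenol) and 60.4% (OC mixture) of the receptors. Olfr745 had 7.74, 8.36 and 9.31 CPM with cis-3-hexenol and 11.0, 9.08 and 4.75 CPM with the OC mixture, against 3.79, 5.93 and 4.74 CPM in the OC controls (adjusted p = 0.0668 and 0.0501, log2 fold change 0.82, SE 0.28, and 0.79, SE 0.28). The other 5 receptors were not called in either comparison. With octanal, 0 of 7 receptors were called where 29.4% of all genes were (DESeq2 called 0, and Olfr740, the 1 receptor with an unadjusted p under 0.05, was called without OC control 2), and their log2 fold changes ran between 0.05 for Olfr145 and 0.34 for Olfr740. Receptors as a class were higher than in the OC controls in each of these comparisons, at medians of 0.34 (octanal), 0.42 (cis-3-hexenol) and 0.54 (OC mixture), beside medians of 0.13, 0.47 and 0.63 over the 7. Scaling on receptor genes alone moved the median of all genes by comparison to -0.36, -0.44 and -0.54 and left no call for Olfr740; the medians were then 0.01, 0.006 and 0.004 over all receptors and -0.19, 0.085 and 0.113 over the 7. The OC controls stood apart in other genes as well: Omp was at 9264 to 11030 CPM with the OC odorants, against 12260 to 13650 CPM in the OC controls, and the red cell genes summed to 689 to 1034 CPM with octanal, 1185 to 1781 CPM with cis-3-hexenol and 771 to 1666 CPM with the OC mixture, against 1978 to 4121 CPM in the OC controls. Of 4 red cell genes, 4, 3 and 3 were called lower with octanal, cis-3-hexenol and the OC mixture, and of 3 bone genes 3, 2 and 3, and their part in the receptors' difference was not tested. Leaving out OC control 2, the highest of its group for all 7 receptors, raised the number called to 4 with cis-3-hexenol and to 5 with the OC mixture, and leaving out OC mixture 3 raised the count for the OC mixture to 3. Calls over all genes varied too when a single library was left out, from 533 to 3150 with cis-3-hexenol and from 3035 to 4960 with the OC mixture.

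The response to acetophenone was set against the responses of the OC batch in 1 fit of 24 libraries and 20018 genes, each response against its own control. Olfr744 had 0.986, 0.934 and 1.43 CPM with octanal, against 0.489, 1.69 and 0.569 CPM in the OC controls, which overlapped. The acetophenone response minus the octanal response was called lower for Olfr744 (-1.85 on the log2 scale, SE 0.63, edgeR adjusted p = 0.0498), where 6.8% of all genes were called lower. The acetophenone response minus the cis-3-hexenol response was called lower for Olfr745 (-1.58, SE 0.40, adjusted p = 0.0405), where 0.779% of all genes were called lower. The median of this second difference was -0.89 over the 7 receptors, -0.52 over all receptors, -1.30 over class I receptors and 0 over all genes. Each of these calls was lost when any 1 of the libraries compared was left out, except OC control 2: without it, Olfr740 and Olfr744 were called for the difference from octanal, and Olfr740, Olfr744, Olfr745 and Olfr749 for that from cis-3-hexenol. DESeq2 called Olfr745 and not Olfr744 for the difference from octanal. With the dorsal covariate neither receptor was called.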

How the data were processed

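Per the submitters' processing notes, the authors used Salmon 1.10.1, STAR 2.7.10b and R 4.4.2 on build GRCm39; the role of each and the annotation release are not given in the sources used here. Libraries were made with a stranded mRNA kit, per the labels' protocols. The authors deposited expected counts per Ensembl gene, 1 table per batch, not scaled between libraries; rounding touched 12.8% of AD and 12.6% of OC values. Totals ran from 20604861 to 24802512 counts per library (AD) and from 19003768 to 24531349 (OC), so a receptor at 1 CPM rests on about 20 counts.

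Symbols, transcripts and lengths came from GENCODE M21 (build GRCm38), matched by Ensembl ID, which named 52029 of 57010 IDs; IDs without a name held 0.313% (AD) and 0.321% (OC) of counts. The builds differ, so no coordinates are given. Subfamily names came from RefSeq synonyms (GRCm38.p6), class I being MOR families up to 42.

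Genes were tested with edgeR 4.0.16 in R 4.3.3 (filterByExpr, TMM, quasi-likelihood F-test), 1 fit per batch over 12 libraries and 4 groups, two-sided, with Benjamini-Hochberg adjustment over all genes tested (19525 AD, 19175 OC) and a call under 0.05. Standard errors (SE) were taken as log2 fold change over root F. In all, 13 comparisons gave 91 tests of the 7 receptors, of which 11 were calls. The pipeline was tested on simulated counts: for acetophenone against the AD control it found 82% of 2-fold and 99% of 4-fold changes among 200 altered genes, with 13 false calls among 19246 genes. The altered genes were drawn from those with a mean over 1 CPM, whereas Olfr744 had group means of 0.403 to 1.19 CPM in the AD batch. No library-wide differences in dorsal level or tissue makeup were simulated. These shares are therefore a check of the pipeline and not the power for the 7 receptors.

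Besides the 7 receptors, the text names Olfr151 and Olfr983, up to 3 neighbours per cluster and 4 transduction genes by smallest p, up to 3 genes of the other lists and the 5 receptors and 5 other genes most alike in pattern. Of the closest relatives it names Olfr739 and Olfr747, and not those of Olfr145, Olfr160 and Olfr736. Pde1c and the libraries singled out were chosen after their values were seen. Relatives were ranked by coding sequence, not protein as intended, since no protein sequences were used here. The receptors and lists were chosen with earlier results of these data known. Replicate numbers were not used to pair libraries in the main fit, and the sample labels do not say whether same-numbered libraries were handled together. Deviations of same-numbered libraries correlated above 0.1 in 3 of 18 pairs (AD, at most 0.24) and 1 of 18 (OC, at most 0.116). Libraries of different number were not set beside them, so a pairing was not tested.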

Additional observations from a re-analysis of the deposited data

Results flagged for a closer look

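Acetophenone and an odorant of the OC batch differed in their response, each against its own control, for 2 of the 7 receptors by a test of the difference itself (edgeR, 24 libraries). The edgeR adjusted p was 0.0498 for Olfr744, where 6.8% of all genes were called lower, and 0.0405 for Olfr745, where 0.779% were. Each call held in 1 of the 12 fits that left out 1 library. Neither held with a replicate block, with length and GC offsets or with the dorsal covariate. Olfr744 differed by -1.85 on the log2 scale between the acetophenone and the octanal response, with 0.324 to 0.508 CPM with acetophenone, against 0.917 to 1.61 CPM in the AD controls, and 0.934 to 1.43 CPM with octanal, against 0.489 to 1.69 CPM in the OC controls. Olfr745 differed by -1.58 between the acetophenone and the cis-3-hexenol response, with 2.38 to 3.48 CPM with acetophenone, against 4.83 to 5.24 CPM in the AD controls, and 7.74 to 9.31 CPM with cis-3-hexenol, against 3.79 to 5.93 CPM in the OC controls. In both cases batch and mice differ along with the odorant, and the dorsal receptor level moved with the result: the class I sum averaged 188.7 CPM with acetophenone against 252.1 CPM in the AD controls, and 283.0 CPM with octanal and 344.3 CPM with cis-3-hexenol against 214.5 CPM in the OC controls.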

How the results depend on the processing

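Over 13 comparisons, 1687 values of a single receptor under an alternative gave 1574 with the same call and direction, 65 no longer called, 48 newly called and 0 called in the opposite direction; of 1442 called in neither fit, 88 changed sign. The number of the 7 receptors called changed as follows. Without the low-count filter it was 2 for acetophenone against the AD control, 3 for the AD mixture against acetophenone (Olfr736 added), 2 for acetophenone present against absent, 3 for cis-3-hexenol, 4 for the OC mixture, 2 for acetophenone minus octanal and 4 for acetophenone minus cis-3-hexenol. With TMM over receptor genes it was 1 for the AD mixture against acetophenone, 0 for cis-3-hexenol, 0 for the OC mixture, 0 for acetophenone minus octanal and 2 for acetophenone minus cis-3-hexenol; with acetophenone against decanal 75.1% of 2423 calls over all genes were then higher, against 53.4% of 5278. With the dorsal receptor covariate (added after the data were seen) it was 0 for acetophenone against decanal, for the AD mixture against acetophenone, for cis-3-hexenol and for both response differences. In the same order, with octanal before cis-3-hexenol for the differences, calls over all genes were then 2463, 3996, 339, 2001 and 0. Without the covariate they were 5278, 4947, 2341, 2825 and 436. With length and GC offsets it was 0 for the AD mixture against acetophenone and for both differences. With a replicate block it was 1 for decanal against the AD control, 1 for the AD mixture against acetophenone and 0 for both differences. In a fit of the 6 libraries compared it was 1 for decanal against the AD control, 0 for the AD mixture against acetophenone and 2 for cis-3-hexenol. The robust fit gave 1 for decanal, 6 for acetophenone against decanal, 3 for the AD mixture against acetophenone (Olfr736 added in both) and 2 for acetophenone minus cis-3-hexenol. The Wald test of DESeq2 gave 3 for the AD mixture against acetophenone (Olfr736 added), Olfr745 in place of Olfr744 for acetophenone minus octanal, and 2 for cis-3-hexenol, for the OC mixture and for acetophenone minus cis-3-hexenol. DESeq2 size factors gave 2 and a filter of 1 CPM gave 2 for the OC mixture. With Olfr747 added to Olfr749 (also added later) it was 4 for acetophenone against decanal and 1 for the AD mixture against acetophenone. The causes were not tested. Leaving out each library in turn gave 0 to 0 for acetophenone against the AD control, 0 to 1 for the AD mixture, 2 to 5 for acetophenone against decanal, 0 to 4 for the AD mixture against acetophenone, 0 to 1 for octanal, 1 to 4 for cis-3-hexenol, 1 to 5 for the OC mixture, 0 to 2 and 0 to 4 for the differences from octanal and cis-3-hexenol, and 0 to 0 elsewhere. With 8 to 58 counts per library, Olfr744 is the receptor whose values depth limits most.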
